A study of Caenorhabditis elegans with 6 samples.

Results

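The genes that build, activate and equip sperm, other than the major sperm protein (*msp*) genes, were compared between *fmo-4* OE-labelled libraries and wild type (WT) libraries of whole *C. elegans*. They were chosen by name: every gene of the deposited table whose symbol begins with *spe-*, *fer-* or *nspd-*, plus *gsp-3*, *gsp-4*, *smz-1*, *smz-2*, *trp-3* (carried here as *spe-41*), *htas-1*, *cylc-2*, *comp-1*, *snf-10*, *try-5* and *swm-1*. This gave 55 of the 20138 genes in the table, of which 54 are protein coding and 1, *nspd-11*, is a pseudogene. By role, 17 act in sperm formation, 12 in sperm activation and 10 in fertilization, 10 are NSPD peptide genes, and 6 carry a *spe-* name but were given no role here. The rule uses names and no measured value, but the members were chosen with earlier results of these data known.

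The study asked how overexpression of *fmo-4*, a flavin-containing monooxygenase gene, alters transcription in worms. Messenger RNA of whole worms at day 1 of adulthood, raised on OP50 bacteria, was sequenced in 3 *fmo-4* OE-labelled libraries and 3 WT libraries, with worms pooled in each replicate and no treatment given to either group. The study describes overexpression strains that carry integrated multicopy arrays, 1 with *fmo-4* under the ubiquitous *eft-3* promoter and another under the hypodermal *dpy-7* promoter, and the labels do not say which was sequenced. Replicates are named only as biological replicates, so p-values measure the spread between these libraries.

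A *C. elegans* hermaphrodite makes its sperm during late larval life and then turns its germline to oocytes for good, so the young adult holds a stored supply of finished sperm and no longer makes new ones. Spermatocytes transcribe their genes before the meiotic divisions, spermatids then shed their ribosomes into a residual body, and activation turns the round spermatid into a crawling spermatozoon. Spermatozoa reach the oocyte in the spermatheca and fuse with it by means of membrane proteins that many *spe-* genes encode.

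The *fmo-4* OE-labelled libraries held 17576872, 22675429 and 21336047 reads in replicates 1 to 3, and WT replicates 1 to 3 held 20020901, 17768502 and 24943501. *fmo-4* itself was not higher in the *fmo-4* OE-labelled libraries: it had 372, 476 and 368 reads there, against 522, 397 and 525 reads in WT. Its log2 fold change was -0.24 ± 0.18 (standard error), with an adjusted p of 0.947 in the edgeR quasi-likelihood test, so the groups are named by their labels throughout. By qPCR, the study reported *fmo-4* many-fold above WT in both of its overexpression strains, which these read counts do not show. For sperm transcripts, 1 WT library stood apart from its group. WT replicate 2 had a summed normalised count of 1972 over the 33 *msp* genes, where WT replicates 1 and 3 had 10327 and 9573 and the *fmo-4* OE-labelled libraries ranged between 1687 and 2122. A normalised count here is a read count scaled to the mean effective library size. Whether a library is mislabelled was not tested. *sdc-3* is a dosage compensation gene picked after its values were seen. It had normalised counts of 2020, 1670.2 and 1979 in the *fmo-4* OE-labelled libraries, against 433, 654 and 469.8 in WT. A gene picked in this way is no test of the labels. Because WT replicate 2 stood apart in sperm transcripts, results are given with it and, where it moves them, without it.

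Most of these genes were scarce in day 1 adults. They took up 0.0230% to 0.0261% of reads in the *fmo-4* OE-labelled libraries and 0.0290% to 0.0340% in WT. The median member had 0.913 FPKM (fragments scaled by gene length and library size), against 10.4 FPKM for all genes that entered the test, and 28 members averaged under 1 FPKM. In 14 members no library exceeded 10 reads. A small set carried most of the signal, with *spe-39*, *spe-48*, *spe-44*, *spe-15* and *spe-5* accounting for 73.0% of all member reads and *spe-39* alone for 38.8%. In whole worms, fewer cells of a type and less RNA per cell cannot be told apart.

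After a filter on low counts, 35 of the 55 members (63.6%) could be tested, close to the 66.6% of all genes that passed. At an unadjusted p under 0.05, 10 of the 35 were lower in the *fmo-4* OE-labelled libraries, where 3.01% of the 13413 genes tested were lower. No member was higher, where 4.32% of all genes tested were higher. No member passed an adjusted p of 0.05, which 0.0447% of genes did in the edgeR quasi-likelihood test with Benjamini-Hochberg adjustment, and the smallest adjusted p of any member was 0.583. The DESeq2 Wald test also put 0 members past an adjusted p of 0.05, where 92 of the 13413 genes passed. Its adjusted p was 0.0518 for both *gsp-3* and *smz-2*, just above the threshold, so nearness to it depended on the method. The log2 fold change was below 0 in 32 of the 35, against 52.8% of all genes tested, and the median was -1.07 over the members and -0.02 over all genes tested. In 5 of the 35 every *fmo-4* OE-labelled library lay below every WT library, which held for 5.26% of all genes tested. The reverse, every *fmo-4* OE-labelled library above every WT library, held for 0 of the 35 and for 5.85% of all genes tested. All members were read in the same 6 libraries, so they do not count as separate tests.

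The 10 lower members were *smz-2*, *gsp-3*, *smz-1*, *spe-55*, *htas-1*, *gsp-4*, *spe-26*, *spe-46*, *nspd-10* and *spe-54*, with adjusted p of 0.583 to 0.674 in the edgeR quasi-likelihood test. WT replicate 2 was the lowest WT library in all 10, as it was in 277 of the 404 lower genes of the whole table (68.6%). Without WT replicate 2, 15 of 36 members tested were lower at an unadjusted p under 0.05, where 4.66% of all genes were, and 3 of them (*gsp-3*, *gsp-4* and *smz-2*) passed an adjusted p of 0.05. That library was singled out for its low sperm transcripts, so these counts follow in part from the choice and are a description. Without WT replicate 1 the count was 5 of 35 (1.63% of all genes), and without WT replicate 3 it was 6 of 35 (3.17%). The members that missed the threshold were *gsp-4*, *htas-1*, *spe-26*, *spe-46* and *spe-54* without WT replicate 1, and *nspd-10*, *spe-46*, *spe-54* and *spe-55* without WT replicate 3. *gsp-3*, *smz-1* and *smz-2* were the 3 members that were lower at an unadjusted p under 0.05 with any 1 of the 6 libraries left out.

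**Figure D1:**
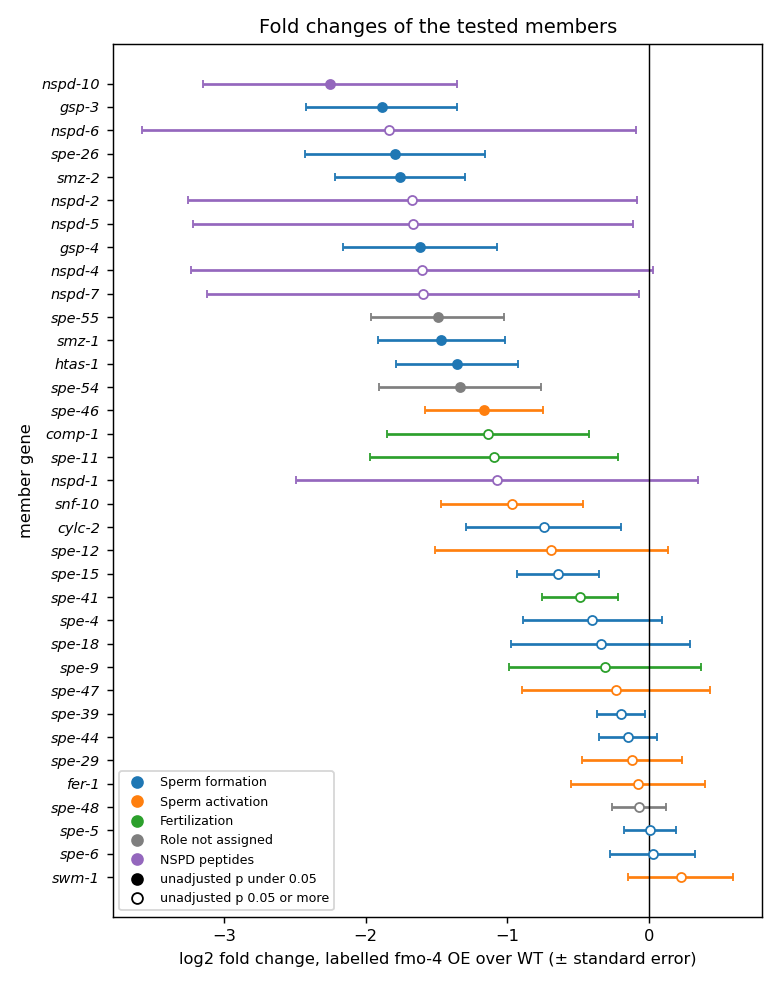
Fold changes of the 35 tested members. The horizontal axis gives the log2 fold change of the *fmo-4* OE-labelled libraries over WT with its standard error, each row is a gene, colours mark roles, and filled points have an unadjusted p under 0.05. The points run between -2.25 for *nspd-10* and 0.22 for *swm-1*, and 32 of 35 lie below 0.

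Sperm formation held the largest number of lower genes and also the most tested members. Of its 17 members 14 were tested, and 6 were lower and 0 higher at an unadjusted p under 0.05. Of all genes tested, 3.01% were lower and 4.32% higher. The median log2 fold change of the 14 was -0.69. Without WT replicate 2 the lower genes were 7 of 14 (4.66% of all genes), with *spe-15* added, and without WT replicate 1 they were 3 (1.63%). The paired phosphatases *gsp-3* (W09C3.6, chromosome I, 4709317 to 4710708) and *gsp-4* (T03F1.5, chromosome I, 3838237 to 3839673) encode sperm-specific catalytic subunits of protein phosphatase 1 that act in sperm meiosis and motility. *gsp-3* had normalised counts of 37.7, 62.8 and 35.3 in the *fmo-4* OE-labelled libraries, against 247, 57.6 and 199 in WT. *gsp-4* had 50.3, 50.6 and 50.6 in the *fmo-4* OE-labelled libraries, against 243, 45.2 and 176 in WT. In both genes WT replicates 1 and 3 stood far above the other 4 libraries, and WT replicate 2 lay among or just under the *fmo-4* OE-labelled libraries. The log2 fold change was -1.89 ± 0.53 (standard error, unadjusted p = 0.008 in the edgeR quasi-likelihood test) for *gsp-3* and -1.62 ± 0.54 (unadjusted p = 0.019) for *gsp-4*. The sequences of these paralogs are nearly the same, so their reads may be divided uncertainly between them and they are not separate evidence.

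The PP1 catalytic subunits that soma and germline share, *gsp-1* and *gsp-2*, had log2 fold changes of -0.07 and -0.02. As a share of the summed FPKM of all 4 genes, *gsp-3* and *gsp-4* made up 0.760%, 1.06% and 0.799% in the *fmo-4* OE-labelled libraries, against 4.06%, 0.991% and 3.25% in WT. Since the share is taken within a library, it does not depend on how libraries are scaled, and it again placed WT replicate 2 beside the *fmo-4* OE-labelled libraries.

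*smz-1* (C25G4.6, chromosome IV, 12455117 to 12456200) and *smz-2* (T21G5.4, chromosome I, 6872597 to 6873755) encode related PDZ-domain proteins needed for sperm meiosis. *smz-1* had normalised counts of 43.4, 69.3 and 55.3 in the *fmo-4* OE-labelled libraries, against 228, 66.7 and 171 in WT. *smz-2* had 38.9, 33.7 and 28.6 in the *fmo-4* OE-labelled libraries, against 172, 48.6 and 121 in WT. The groups did not overlap for *smz-2*, while WT replicate 2 reached into the other group for *smz-1*. The log2 fold change was -1.76 ± 0.46 for *smz-2* (unadjusted p = 0.005), the smallest unadjusted p of the members in the edgeR quasi-likelihood test. For *smz-1* it was -1.47 ± 0.45 (unadjusted p = 0.012).

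*htas-1* (ZK1251.1, chromosome IV, 9682984 to 9683532) encodes a histone H2A variant of sperm chromatin. Its normalised counts were 13.7, 13.1 and 12.4 in the *fmo-4* OE-labelled libraries, against 50.6, 24.9 and 25.5 in WT. All 3 WT libraries lay above the others, and here WT replicate 1 alone stood apart. The log2 fold change was -1.36 ± 0.43 (unadjusted p = 0.014 in the edgeR quasi-likelihood test). *spe-26* (R10H10.2, chromosome IV, 10389577 to 10391945), which encodes a kelch-repeat protein of the spermatocyte cytoskeleton, had 12.6, 9.37 and 18.1 in the *fmo-4* OE-labelled libraries, against 86.0, 15.8 and 37.8 in WT. Its log2 fold change was -1.79 ± 0.63 (unadjusted p = 0.023), with WT replicate 2 inside the range of the other group, and it was -1.02 ± 0.57 (unadjusted p = 0.117) without WT replicate 1. *spe-26* overlaps R10H10.3 on the opposite strand, a gene with 782 reads a library on average, and whether counting used strand is not given in the sources used here.

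**Figure D2:**
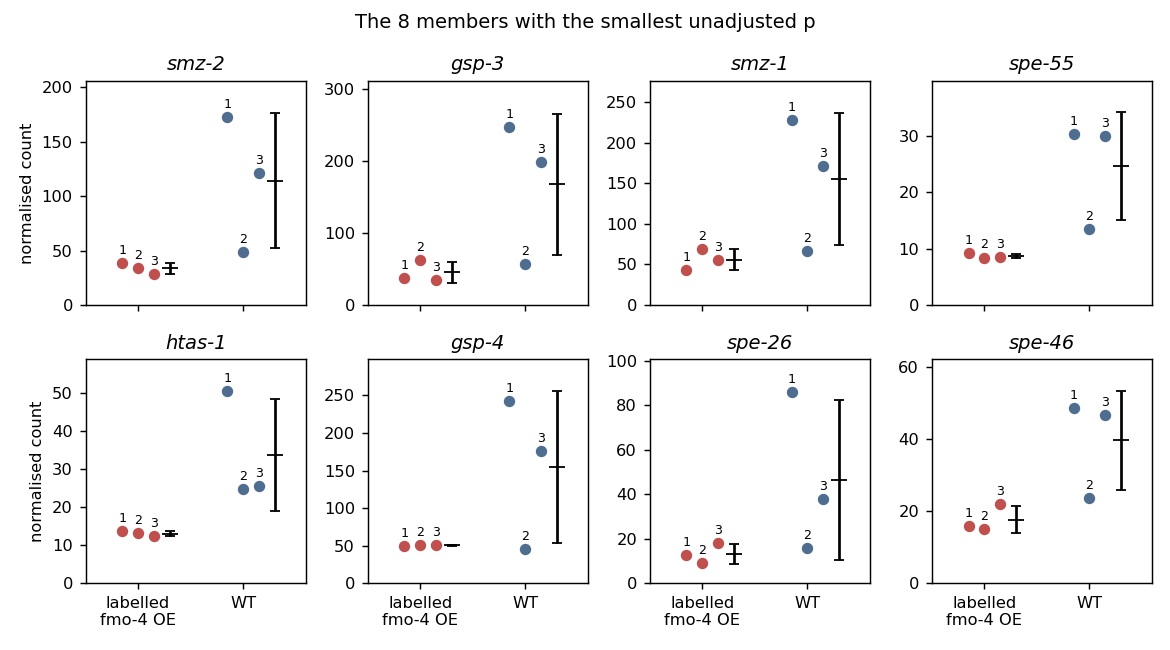
Normalised counts of the 8 members with the smallest unadjusted p. Each point is a library numbered by its replicate, *fmo-4* OE-labelled libraries on the left and WT on the right, with the mean and SD (n = 3 each) as bars beside them. In each panel WT replicate 1 is highest and WT replicate 2 is the lowest WT library.

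The other tested genes of sperm formation had an unadjusted p above 0.05. *spe-15*, a myosin VI gene needed to sort organelles at spermatid budding, had 274, 228 and 288 in the *fmo-4* OE-labelled libraries, against 576, 272 and 385 in WT, as normalised counts. Its log2 fold change was -0.64 ± 0.29 (unadjusted p = 0.057 in the edgeR quasi-likelihood test), and WT replicate 2 lay inside the range of the other group. It was -0.87 ± 0.25 (unadjusted p = 0.011) without WT replicate 2 and -0.33 ± 0.25 (unadjusted p = 0.230) without WT replicate 1. *cylc-2*, a cylicin-like gene, had 9.15, 32.8 and 12.4 in the *fmo-4* OE-labelled libraries, against 33.4, 20.3 and 37.8 in WT. The groups overlapped for *cylc-2* (log2 fold change -0.74 ± 0.55), and *fmo-4* OE-labelled replicate 2 nearly reached WT replicate 1. *spe-18*, *spe-4* (a presenilin) and *spe-6* (a casein kinase 1 relative) had log2 fold changes of -0.34, -0.40 and 0.03, each with overlapping groups.

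Of the 5 members with the most reads, 4 varied little between libraries, while *spe-15* varied 2.53-fold. *spe-39*, which acts in vesicle trafficking in somatic cells as well as in sperm, had normalised counts of 2401, 2057 and 1893 in the *fmo-4* OE-labelled libraries, against 2597, 2755 and 1938 in WT (log2 fold change -0.20 ± 0.17). *spe-44* (C25G4.4, chromosome IV, 12452064 to 12454215), which encodes a transcription factor of spermatocytes, had 619, 509.6 and 419.7 in the *fmo-4* OE-labelled libraries, against 598, 634 and 484 in WT (log2 fold change -0.15 ± 0.21). *spe-5*, which encodes a B subunit of the vacuolar proton pump, had 263, 231 and 229.9 in the *fmo-4* OE-labelled libraries, against 247, 232 and 242 in WT (log2 fold change 0.01 ± 0.18). The groups overlapped in all of them. Between the highest and the lowest of the 6 libraries the level differed 1.14-fold for *spe-5*, 1.45-fold for *spe-48*, 1.46-fold for *spe-39* and 1.51-fold for *spe-44*, against 9.19-fold for *spe-26*. *spe-44* and *smz-1* are adjacent on chromosome IV, 901 bases apart with no gene between them in the deposited coordinates, and *smz-1* varied 5.24-fold over the same libraries.

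By level, *spe-39* came first among the members with a mean of 57.5 FPKM, followed by *spe-48* with 33.3 FPKM, *spe-44* with 16.0 FPKM and *swm-1* with 13.6 FPKM. *smz-1* had 5.23 FPKM, *gsp-3* had 4.85 FPKM and *smz-2* had 3.31 FPKM. These 3 genes, which varied widely between libraries, were thus below *spe-39*, *spe-48* and *spe-44* in level. For *gsp-3* the mean was 2.06 FPKM in the *fmo-4* OE-labelled libraries and 7.65 FPKM in WT.

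Sperm activation had a single lower gene. Of 12 members 7 were tested. At an unadjusted p under 0.05, 1 was lower (3.01% of all genes tested) and 0 higher (4.32%). The median log2 fold change was -0.23. The lower gene, *spe-46* (W06D4.2, chromosome I, 9056294 to 9057822), helps to hold back activation until the right time. Its normalised counts were 16.0, 15 and 21.9 in the *fmo-4* OE-labelled libraries, against 48.6, 23.7 and 46.6 in WT, without overlap between the groups. The log2 fold change was -1.16 ± 0.41 (unadjusted p = 0.023 in the edgeR quasi-likelihood test). *spe-47*, also placed in sperm activation, overlapped between groups, with 3.43, 23.4 and 8.59 in the *fmo-4* OE-labelled libraries, against 13.2, 11.3 and 17.6 in WT.

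*fer-1* encodes the founding ferlin, which drives fusion of the membranous organelles with the sperm surface during activation. It had normalised counts of 12.6, 23.4 and 26.7 in the *fmo-4* OE-labelled libraries, against 32.4, 14.7 and 19.4 in WT, and the groups overlapped widely (log2 fold change -0.08 ± 0.47). Of the hermaphrodite activation pathway (*spe-8*, *spe-12*, *spe-19*, *spe-27*, *spe-29* and *spe-43*), *spe-12* and *spe-29* could be tested, with log2 fold changes of -0.69 ± 0.82 and -0.12 ± 0.35. *spe-8*, a tyrosine kinase gene, had 0, 5 and 8 reads in the *fmo-4* OE-labelled libraries, against 3, 4 and 23 reads in WT.

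Males activate their sperm by another route, in which the seminal protease TRY-5 acts, SWM-1 inhibits proteases until mating, and the transporter SNF-10 responds on the sperm. *try-5* had 2, 3 and 8 reads in the *fmo-4* OE-labelled libraries, against 0, 0 and 3 reads in WT, and it overlaps K07B1.7 on the opposite strand, which averaged 552 reads. *swm-1* had normalised counts of 109, 216 and 193 in the *fmo-4* OE-labelled libraries, against 129.6, 99.4 and 214 in WT. Its log2 fold change of 0.22 ± 0.37 was the highest of the tested members, and the groups overlapped. *snf-10* had 6.86, 12.2 and 15.3 in the *fmo-4* OE-labelled libraries, against 22.3, 13.6 and 31.7 in WT (log2 fold change -0.97 ± 0.50, unadjusted p = 0.090 in the edgeR quasi-likelihood test). WT replicate 2 fell among the other group for *snf-10*, and without it the value was -1.23 ± 0.49 (unadjusted p = 0.042). It was -0.64 ± 0.59 (unadjusted p = 0.311) without WT replicate 3. *snf-10* overlaps *set-22* on the opposite strand, a gene with 1025 reads a library on average.

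Fertilization genes were mostly too scarce to test. Of 10 members 4 could be tested and 0 were lower or higher at an unadjusted p under 0.05 in the edgeR quasi-likelihood test. Over all genes tested, 3.01% were lower and 4.32% higher. The median log2 fold change was -0.79 and all 4 were below 0, against 52.8% of all genes tested. *spe-41* encodes a TRPC channel that reaches the sperm surface on activation and is needed for fertilization. It had normalised counts of 103, 106 and 70.6 in the *fmo-4* OE-labelled libraries, against 157, 119.8 and 114 in WT. The groups did not overlap, though only by a small margin, and the log2 fold change was -0.49 ± 0.27 (unadjusted p = 0.110). *spe-9*, which encodes an EGF-repeat protein of the sperm surface, had 11.4, 3.75 and 10.5 in the *fmo-4* OE-labelled libraries, against 8.10, 4.52 and 18.5 in WT, with overlapping groups.

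*comp-1*, needed by sperm to compete in mating, had normalised counts of 4.57, 13.1 and 9.54 in the *fmo-4* OE-labelled libraries, against 37.5, 5.65 and 17.6 in WT. *spe-11*, whose protein is delivered by sperm and helps to activate the egg, had 14.9, 18.7 and 17.2 in the *fmo-4* OE-labelled libraries, against 35.4, 2.26 and 70.4 in WT. In both, WT replicate 2 was near or under the lowest *fmo-4* OE-labelled library while WT replicates 1 and 3 were above all of that group. The log2 fold changes were -1.14 ± 0.72 for *comp-1* and -1.10 ± 0.88 for *spe-11*, and without WT replicate 2 they were -1.57 ± 0.59 and -1.64 ± 0.42 (unadjusted p = 0.033 and 0.006 in the edgeR quasi-likelihood test). *comp-1* was at -0.37 ± 0.74 without WT replicate 1 (unadjusted p = 0.628), and *spe-11* was at -0.17 ± 0.87 without WT replicate 3 (unadjusted p = 0.851). *spe-38* had 3, 0 and 0 reads in the *fmo-4* OE-labelled libraries, against 0, 1 and 0 in WT. *spe-42* had 3, 1 and 1 reads in the *fmo-4* OE-labelled libraries, against 7, 3 and 3 in WT. At this depth a difference in either membrane protein gene was not detectable.

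**Figure D3:**
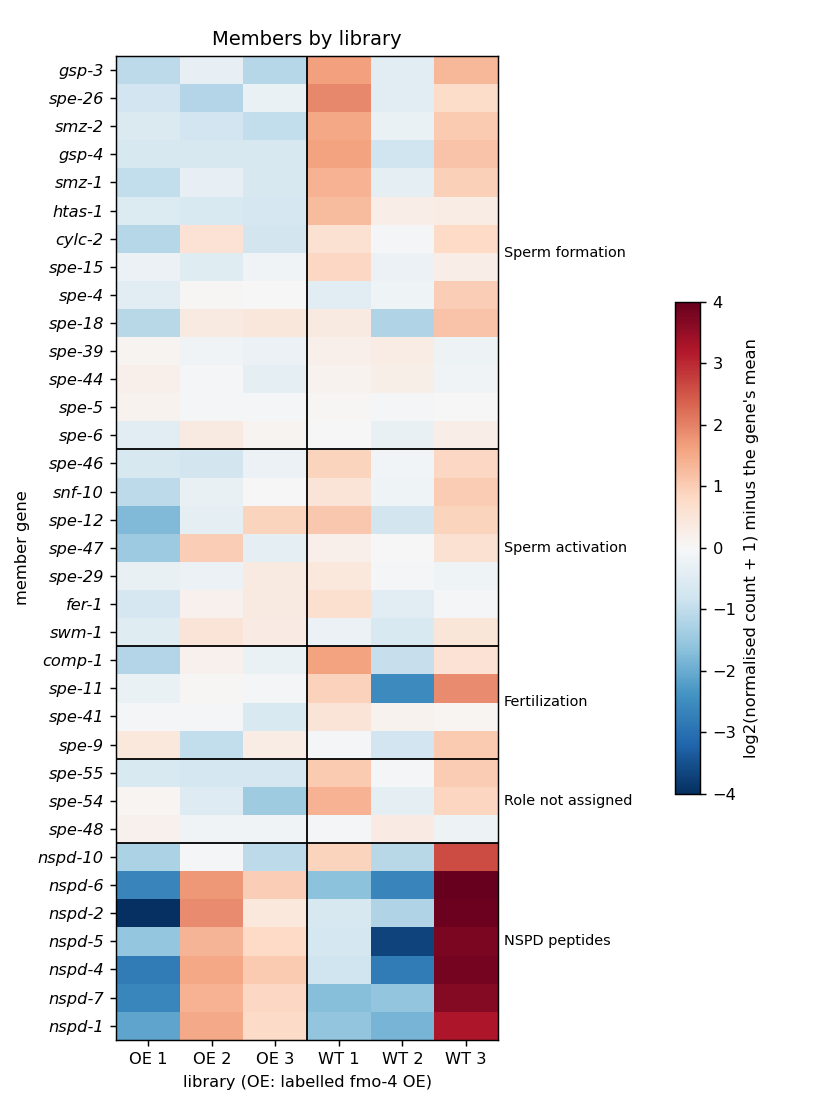
The 35 tested members across the 6 libraries. Rows are genes grouped by role, columns are libraries (labelled *fmo-4* OE on the left, WT on the right), and colour is log2(normalised count + 1) minus the mean of the gene. The median sperm formation gene is highest in WT replicates 1 and 3, although *spe-39*, *spe-44*, *spe-5*, *spe-6*, *spe-4* and *spe-18* are not. The NSPD peptide genes other than *nspd-10* are highest in WT replicate 3 and next in *fmo-4* OE-labelled replicates 2 and 3.

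The NSPD peptide genes, a nematode-specific family of short genes with transcripts in sperm and no established role, followed another order of libraries. Of 10 members 7 were tested. At an unadjusted p under 0.05, 1 was lower (3.01% of all genes tested) and 0 higher (4.32%). The median log2 fold change was -1.67. *nspd-1* had normalised counts of 4.57, 68.4 and 40.1 in the *fmo-4* OE-labelled libraries, against 7.09, 5.65 and 225 in WT. *nspd-2* had 0, 75.9 and 26.7 in the *fmo-4* OE-labelled libraries, against 12.1, 7.91 and 309 in WT. *nspd-5* had 3.43, 32.8 and 21.9 in the *fmo-4* OE-labelled libraries, against 7.09, 0 and 179 in WT. WT replicate 3 towered over the others in each, *fmo-4* OE-labelled replicates 2 and 3 came next, and the groups overlapped.

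The log2 fold changes of *nspd-1*, *nspd-2* and *nspd-5* were -1.07 ± 1.42, -1.67 ± 1.59 and -1.67 ± 1.55. Without WT replicate 3 they turned to 2.54, 1.76 and 2.38, and the median over the tested NSPD genes turned to 2.5, so the direction of this family rested on that library. *nspd-1* was then higher at an unadjusted p of 0.042 in the edgeR quasi-likelihood test. The lower gene was *nspd-10* (T27C10.7, chromosome I, 10878047 to 10878378), with 8.0, 19.7 and 9.54 in the *fmo-4* OE-labelled libraries, against 39.5, 9.04 and 130.2 in WT. Its log2 fold change was -2.25 ± 0.90 (unadjusted p = 0.039 in the edgeR quasi-likelihood test), and it was -0.96 ± 0.73 without WT replicate 3 (unadjusted p = 0.226). It was the 1 tested member of the family in which WT replicate 1 exceeded *fmo-4* OE-labelled replicates 2 and 3.

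In 6 of the 7 tested NSPD genes the highest 3 libraries were WT replicate 3 and *fmo-4* OE-labelled replicates 2 and 3. The same 3 libraries were highest in 4 of the 28 other tested members (14.3%), in 0 of 27 tested *msp* genes and in 19.8% of all genes tested. Among the 457 other tested genes of 300 to 450 bases, the length of the NSPD genes apart from *nspd-11*, the share was 47.3%. Genes under 500 bases took up 2.62%, 4.34% and 4.06% of reads in the *fmo-4* OE-labelled libraries, against 2.60%, 2.68% and 4.48% in WT, so the same 3 libraries held more reads of short genes. The part of gene length in the NSPD values was not tested. The copies are alike in sequence, and reads may be divided uncertainly among them. With the NSPD genes left out, 9 of 28 tested members were lower at an unadjusted p under 0.05 (3.01% of all genes tested). The median log2 fold change was then -0.67.

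**Figure D4:**
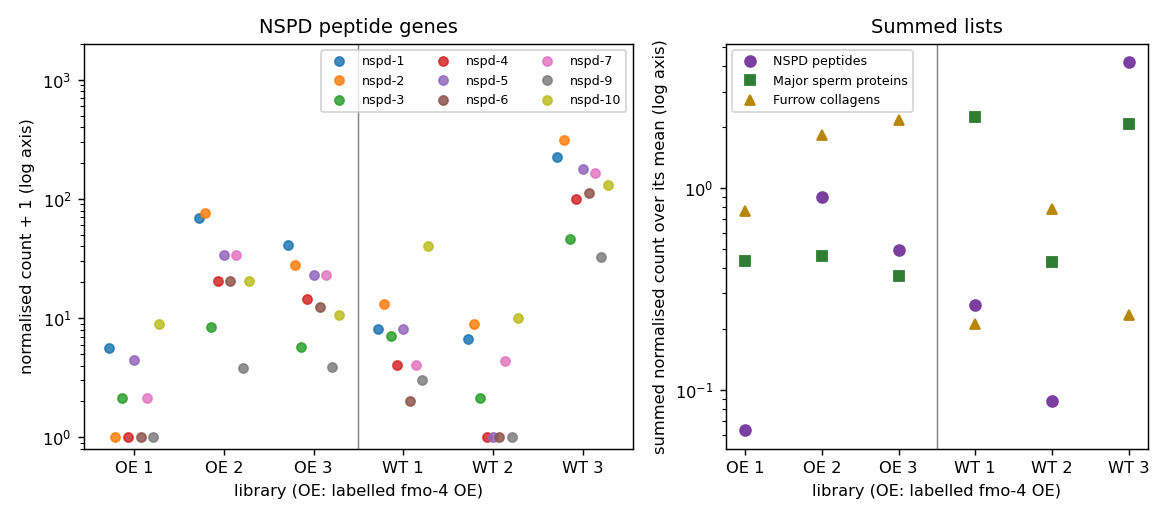
NSPD genes by library, and summed lists beside them. On the left, normalised count + 1 (log axis) of 9 *nspd* genes. On the right, the summed normalised count of the NSPD, *msp* and furrow collagen genes divided by its mean over the 6 libraries (log axis), with *fmo-4* OE-labelled libraries left of the line and WT right of it. NSPD sums peak in WT replicate 3, *msp* sums in WT replicates 1 and 3, and furrow collagen sums are lowest in WT replicates 1 and 3.

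Of the 6 *spe-* genes with no role given here, 3 were tested and 2 were lower at an unadjusted p under 0.05 (3.01% of all genes tested). *spe-55* (C09B9.4, chromosome IV, 5031568 to 5033387) had normalised counts of 9.15, 8.43 and 8.59 in the *fmo-4* OE-labelled libraries, against 30.4, 13.6 and 29.9 in WT, without overlap between the groups. The log2 fold change was -1.49 ± 0.47 (unadjusted p = 0.013 in the edgeR quasi-likelihood test). *spe-54* (F55H12.5, chromosome I, 8869715 to 8871531) had 28.6, 18.7 and 9.54 in the *fmo-4* OE-labelled libraries, against 71.9, 20.3 and 50.1 in WT, a log2 fold change of -1.33 ± 0.57 (unadjusted p = 0.048) with WT replicate 2 inside the range of the other group. *spe-48* had 978, 780.3 and 789 in the *fmo-4* OE-labelled libraries, against 828, 1094 and 752 in WT, and did not separate (log2 fold change -0.07 ± 0.19).

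The 20 members that were not tested had at most 51 reads in any library, and 6 of them exceeded 10 reads in some library. *spe-40* had 0 reads in every *fmo-4* OE-labelled library, against 7, 2 and 4 in WT, and *spe-58* had 2, 1 and 9 in the *fmo-4* OE-labelled libraries, against 13, 4 and 37 in WT. Both were lower at an unadjusted p under 0.05 when no filter was applied. *spe-21*, a palmitoyltransferase gene, was the 1 member with every *fmo-4* OE-labelled library above every WT library by normalised count, with 2, 5 and 8 reads, against 1, 2 and 0 in WT. These counts are too low to compare further.

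The members were unevenly placed on the chromosomes. Chromosome I held 22 and chromosome IV held 17, together 70.9% of the members, where both chromosomes hold 32.6% of the genes in the table. The X chromosome held 0 of the 55 members and 14.2% of the genes in the table. Apart from *spe-44* and *smz-1*, *nspd-3* and *nspd-6* lie 2345 bases apart on chromosome IV with 1 gene between them.

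Other gene lists were set beside the members as descriptions. Of the 33 *msp* genes 27 were tested. At an unadjusted p under 0.05, 23 were lower (3.01% of all genes tested) and 0 higher (4.32%). Their median log2 fold change was -1.93, and WT replicate 2 was the lowest WT library in all 23. The median deviation from the gene mean on the log2 scale was -0.56, -0.23 and -0.32 over the sperm formation genes in the *fmo-4* OE-labelled libraries, against 0.73, -0.25 and 0.77 in WT. For the *msp* genes it was -0.77, -0.62 and -0.90 in the *fmo-4* OE-labelled libraries, against 1.64, -0.82 and 1.6 in WT. Both lists thus put WT replicates 1 and 3 above the other 4 libraries.

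None of 13 oocyte and eggshell genes had an unadjusted p under 0.05 in the edgeR quasi-likelihood test, with a median log2 fold change of -0.04. Of 6 vitellogenin (yolk) genes, 1, *vit-5*, was lower (3.01% of all genes tested). All 6 had a log2 fold change below 0 (52.8% of all genes tested), with a median of -0.22. The summed vitellogenin count, normalised, was 916530 to 1012600 in the *fmo-4* OE-labelled libraries and 1063800 to 1191900 in WT, without overlap. Markers of male ciliated neurons were scarce: 4 of the list were in the table and 0 could be tested. Their summed normalised count was 6.68 to 10.3 in the *fmo-4* OE-labelled libraries and 10.1 to 21.1 in WT. *pkd-2* had no read in any *fmo-4* OE-labelled library, against 3, 0 and 4 reads in WT, too few to compare. Furrow collagens, cuticle genes transcribed at larval molts, were higher where the sperm genes were lower. Of 6 such genes 5 were tested. At an unadjusted p under 0.05, 4 were higher (4.32% of all genes tested) and 0 were lower (3.01%). Their median log2 fold change was 2.18. Their summed normalised count was 747 to 2105 in the *fmo-4* OE-labelled libraries and 205 to 764 in WT, where replicate 2 had the 764. The part of developmental stage in the lower sperm transcripts was not tested.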

How the data were processed

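Whole day 1 adults were sequenced in 3 *fmo-4* OE-labelled libraries and 3 WT libraries after poly-T selection. The labels name fastp, HISAT2, StringTie and featureCounts, without versions. The genome build and the strand setting of the counting are not given in the sources used here, so coordinates are printed as deposited. The authors' table gave read counts without normalization, a signal that is the count divided by a size factor, and FPKM. Deposited counts were used for every test, and deposited FPKM were used only to compare levels between genes. The authors' log2 fold change, p-value and adjusted p-value of *fmo-4* OE over WT were not used, and 3 shorter deposited lists repeat their genes with a small p-value.

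Symbols came from a gene names table for 18770 of 20138 genes and from RefSeq for 1052, and 316 had none. Of the members, 5 carry their *spe-* name only in RefSeq. Members and lists were chosen with earlier results of these data known. The analysis used edgeR 4.0.16 in R 4.3.3: filterByExpr kept 13413 genes, TMM factors were 0.941 to 1.03, and groups were compared by the robust quasi-likelihood F test without covariate, with Benjamini-Hochberg adjustment over all genes tested. The biological coefficient of variation was 0.297, which with 3 libraries a group limits the precision. The standard error is the absolute log2 fold change over the square root of F. Scripts were tested on simulated data. The genes given in every library were *fmo-4*, 19 members standing for the roles, the 8 members with the smallest unadjusted p and the 3 *nspd* genes with the highest mean count, and other members are named as exceptions in their group after their values were seen. Alternatives were DESeq2 1.42.0, RLE factors, library size alone, no count filter, at least 10 counts in every library, the replicate number as a block, each library left out and the members without *nspd* genes.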

Additional observations from a re-analysis of the deposited data

How the results depend on the processing

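The number of lower members was 10 with RLE factors (2.99% of all genes tested were lower), library size alone (2.70%) and the replicate block (3.77%), 11 with DESeq2 (3.32%), 12 of 55 without a count filter (2.44%), 8 of 20 with at least 10 counts in every library (2.44%), and 9 without the *nspd* genes. With libraries left out singly it ran between 5 (without WT replicate 1) and 15 (without WT replicate 2), and was 6 without WT replicate 3. Higher members were 0 to 1, the 1 being *nspd-1* without WT replicate 3. Members with an adjusted p under 0.05 were 0 to 3, the 3 being *gsp-3* (log2 fold change -2.30), *gsp-4* (-2.05) and *smz-2* (-2.12) without WT replicate 2, with adjusted p of 0.042, 0.037 and 0.042 in the edgeR quasi-likelihood test. The median log2 fold change of the members ran between -1.48 (without WT replicate 2) and -0.26 (without WT replicate 3), and was -0.41 with at least 10 counts in every library, where fewer members could be tested. For *fmo-4* the leave-one-out range was -0.31 to -0.13.

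Direction turned with some library left out in 15 of the 35 tested members, of which 5 are among those given in every library and 10 are others, *nspd-4*, *nspd-6* and *nspd-7* included. The range was -0.30 to 0.28 for *fer-1* (0.28 without WT replicate 1, 0.20 without *fmo-4* OE-labelled replicate 1) and -0.66 to 0.41 for *spe-9* (0.41 without WT replicate 3, 0.05 without *fmo-4* OE-labelled replicate 2). It was -1.82 to 2.54 for *nspd-1*, -3.01 to 1.76 for *nspd-2* and -2.27 to 2.38 for *nspd-5*, each highest without WT replicate 3. For the members given in every library and tested, a further 233 values under alternatives kept direction and side of the adjusted threshold.

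With the replicate number as a block, 9 of the 10 lower members were shared, *spe-15* joined and *nspd-10* left, and the median was -0.58. Deviations of same-numbered libraries correlated at 0.428, -0.309 and 0.356 over replicates 1 to 3, positive for replicates 1 and 3 and negative for replicate 2. The labels do not say whether same-numbered libraries share a batch, and this was not tested. Of 6 libraries, 3 correlated best with their own number. Over all genes tested, 6 had an adjusted p under 0.05, against 92 with DESeq2, 131 without WT replicate 2, 10 without a count filter and 0 with at least 10 counts in every library. The 14 members with at most 10 reads in each library could not be judged at this depth.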

Other observations

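Sperm-line genes outside the members and the *msp* genes were read from a list of 26, of which 21 were tested. At an unadjusted p under 0.05 in the edgeR quasi-likelihood test 6 were lower (3.01% of all genes tested) and 1 was higher (4.32%). The median log2 fold change was -1.75. *msd-2*, which encodes a protein with a major sperm protein domain, had 30, 32 and 35 reads in the *fmo-4* OE-labelled libraries, against 206, 46 and 213 reads in WT, a log2 fold change of -2.20 (adjusted p = 0.583). *ssp-10* had 58, 69 and 51 reads in the *fmo-4* OE-labelled libraries, against 411, 50 and 231 reads in WT (log2 fold change -1.91). *spch-2*, which encodes a sperm chromatin protein, had 13, 13 and 13 reads in the *fmo-4* OE-labelled libraries, against 75, 11 and 45 reads in WT (log2 fold change -1.70). In both, WT replicate 2 lay close to the *fmo-4* OE-labelled libraries, as in *gsp-4*. The higher gene was *elt-1*, a GATA factor gene of hypodermis and germline, with 191, 363 and 456 reads in the *fmo-4* OE-labelled libraries, against 149, 174 and 187 reads in WT (log2 fold change 0.96).

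Regulators of the choice between sperm and oocyte fate did not follow the sperm genes. All 18 of the list in the table were tested. At an unadjusted p under 0.05 in the edgeR quasi-likelihood test 0 were lower (3.01% of all genes tested) and 1 was higher (4.32%). The median log2 fold change was -0.05. *fog-1*, which directs germ cells to sperm fate, had 317, 699 and 557 reads in the *fmo-4* OE-labelled libraries, against 445, 485 and 647 reads in WT (log2 fold change -0.02). The higher gene was *her-1*, which promotes male fate, with 16, 32 and 28 reads in the *fmo-4* OE-labelled libraries, against 14, 12 and 11 reads in WT (log2 fold change 1.01, adjusted p = 0.642).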
